A study of Mus musculus with 22 samples.

Results

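The genes of the epidermal differentiation complex were followed through 22 mouse tumours of the oral buccal mucosa. They were taken as every mouse gene whose symbol starts with Sprr or with Lce and a digit, together with Ivl, Lor, Flg, Flg2, Hrnr, Rptn, Tchh and Crct1, and a gene was kept where at least 10 reads were counted in at least 5 of the 22 libraries. Of 46 candidates, 45 were kept, out of 56748 gene IDs in the files, and the candidate not kept was Sprr2c-ps. The kept genes comprised 12 Sprr2 genes, 4 genes of the Sprr1, Sprr3 and Sprr4 group, 14 Lce1 genes, 7 genes of the Lce3 and Lce6 group, 5 S100 fused-type genes, and Ivl, Lor and Crct1. All 45 lay on chromosome 3 between 92080271 and 93449077 (GRCm38), a stretch of 1.37 Mb, and GENCODE lists 44 as protein coding and Sprr2g as a polymorphic pseudogene.

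The study modelled head and neck squamous carcinoma with a hyperactive NRF2 pathway, and each library was bulk RNA-seq of a pulverised frozen primary tumour. Every tumour carried Krt5CreER-T2 on a single allele, floxed Trp53 on both alleles and the Cre-inducible Rosa26LSL-PIK3CA(H1047R) transgene on both alleles, so the controls carry the last pair of changes as well. The Krt5 promoter places the 4-hydroxytamoxifen-activated Cre in basal keratinocytes, and 4-hydroxytamoxifen was given into the buccal mucosa, so stromal cells of a tumour keep intact Keap1. The groups were Keap1-wildtype untreated (n = 6), Keap1-wildtype treated with benzo[a]pyrene (BAP, a tobacco-smoke carcinogen; n = 6), Keap1fl/fl untreated (n = 5) and Keap1fl/fl treated with BAP (n = 5), the last pair called Keap1-deleted below. Whether each tumour came from an animal of its own, and the animals' sex and age, are not stated in the labels, so p-values measure the spread between these tumours.

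Genes of the complex encode the structural proteins of the cornified envelope, the cross-linked protein shell that replaces the membrane of a keratinocyte at the end of its differentiation. Involucrin (Ivl) and loricrin (Lor) are envelope scaffold proteins, small proline-rich proteins (Sprr) bridge them, late cornified envelope proteins (Lce) are added last, and filaggrin (Flg) and its S100 fused-type relatives bundle keratin filaments or line the envelope. Basal keratinocytes, marked by Krt5 and Krt14, express few of these genes, which are switched on as cells leave the basal layer. Oral epithelium and squamous carcinomas express them to the extent that their cells keratinise.

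Promoter sequence is shown for some Sprr2, Sprr1 and Lce3 genes and for Ivl and Lor, because the families differ in the motif letters they hold there. No sequence of an Lce1 or S100 fused-type gene is printed. The 250 bases before the RefSeq transcription start (GRCm38.p6) are printed 5′ to 3′ on the gene's strand, with capitals marking matches on either strand to the AP-1 motif TGANTCA, the antioxidant response element core TGACNNNGC or the Grainyhead motif AACCNGTT. The first sequence below is Sprr2d (chr3:92338890-92339139, plus strand), followed by Sprr2k (chr3:92432332-92432581, plus strand), Sprr2a1 (chr3:92215585-92215834, plus strand), Sprr1a (chr3:92485882-92486131, minus strand), Ivl (chr3:92573736-92573985, minus strand), Lor (chr3:92083143-92083392, minus strand) and Lce3d (chr3:92957140-92957389, plus strand).
Sprr2d: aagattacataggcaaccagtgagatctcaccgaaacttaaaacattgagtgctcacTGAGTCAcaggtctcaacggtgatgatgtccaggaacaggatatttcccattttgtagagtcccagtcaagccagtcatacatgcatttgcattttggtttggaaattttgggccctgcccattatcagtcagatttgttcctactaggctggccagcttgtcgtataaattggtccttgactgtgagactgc
Sprr2k: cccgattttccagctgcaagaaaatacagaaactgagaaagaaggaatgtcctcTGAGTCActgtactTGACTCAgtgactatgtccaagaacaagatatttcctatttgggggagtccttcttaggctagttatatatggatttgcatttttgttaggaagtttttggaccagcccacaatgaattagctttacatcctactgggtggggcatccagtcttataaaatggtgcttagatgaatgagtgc
Sprr2a1: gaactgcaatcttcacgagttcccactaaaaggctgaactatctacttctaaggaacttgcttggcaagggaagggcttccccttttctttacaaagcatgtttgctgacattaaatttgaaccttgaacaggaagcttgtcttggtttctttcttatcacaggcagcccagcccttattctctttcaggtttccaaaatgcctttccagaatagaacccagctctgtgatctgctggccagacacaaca
Sprr1a: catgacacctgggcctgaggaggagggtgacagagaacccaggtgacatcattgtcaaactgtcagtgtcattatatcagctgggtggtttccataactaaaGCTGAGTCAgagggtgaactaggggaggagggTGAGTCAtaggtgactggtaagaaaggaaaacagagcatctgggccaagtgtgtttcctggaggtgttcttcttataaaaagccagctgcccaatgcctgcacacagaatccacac
Ivl: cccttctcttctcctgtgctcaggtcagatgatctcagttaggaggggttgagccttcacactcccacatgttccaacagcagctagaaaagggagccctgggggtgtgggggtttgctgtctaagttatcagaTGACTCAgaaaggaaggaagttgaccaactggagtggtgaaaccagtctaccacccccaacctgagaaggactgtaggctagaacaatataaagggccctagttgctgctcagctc
Lor: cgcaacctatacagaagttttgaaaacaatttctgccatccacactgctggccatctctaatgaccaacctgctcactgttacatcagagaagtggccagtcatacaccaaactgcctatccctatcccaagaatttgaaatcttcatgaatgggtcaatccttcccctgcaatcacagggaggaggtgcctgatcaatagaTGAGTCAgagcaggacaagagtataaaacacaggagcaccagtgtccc
Lce3d: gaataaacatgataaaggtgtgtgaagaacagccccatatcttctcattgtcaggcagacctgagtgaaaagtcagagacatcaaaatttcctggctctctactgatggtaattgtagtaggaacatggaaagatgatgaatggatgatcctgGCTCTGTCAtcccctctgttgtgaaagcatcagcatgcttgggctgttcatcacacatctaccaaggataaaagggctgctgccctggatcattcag

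A RefSeq window running from 250 bases before to 50 bases after the start was at hand for 41 of the 45 genes. The AP-1 motif occurred in 14 of the 41 windows (34.1%) and in 7.81% of all 32851 windows in the table. All 7 of the Sprr2b to Sprr2k windows held it, each with a match between -198 and -193 from the start, and Sprr2k held a further match at -182. None of the 3 Sprr2a windows, the 13 Lce1 windows or the 7 Lce3 and Lce6 windows held it. Sprr1a had matches at -146 and -116, Ivl at -116 and Lor at -48. The antioxidant response element core, the letters that NRF2 reads, occurred in 8 of the 41 windows (19.5%) against 12.4% of all windows. Of the 7 Lce3 and Lce6 windows 4 held it, with Lce3d at -97 and again at 32 past the start, and the Sprr1a match at -148 overlapped its AP-1 match at -146. The Grainyhead motif occurred in a single window, that of Rptn, which is 2.44% of the 41 against 2.09% of all. The Sprr2b to Sprr2k windows resemble each other, so these counts are not independent, and a match describes letters and not a bound site. The printed Sprr2a1 window does not line up with those of Sprr2d and Sprr2k. Deposited lengths also differ, at 2883 to 3003 bases for the 3 Sprr2a genes and 609 to 784 for the other Sprr2 genes. Whether the Sprr2a windows are the counterparts of the other Sprr2 windows was not tested.

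Total counts ran from 29235010 to 39862777 per library. Levels are given as CPM, counts scaled to a common library total after TMM scaling of library sizes. On the total counts alone, without TMM scaling, 3 counts correspond to 0.0753 to 0.103 CPM. With TMM scaling the values differ: 3 reads of Sprr1b in Keap1-deleted BAP 4 are 0.0805 CPM, against 0.103 CPM without it. Keap1, the targeted gene, lay between 45.8 and 78.9 CPM in Keap1-wildtype untreated tumours, between 52.3 and 64.6 CPM in Keap1-wildtype BAP tumours and between 22.2 and 36.4 CPM in Keap1-deleted untreated tumours. In the Keap1-deleted BAP libraries 1 to 5 it was 29.8, 65.6, 9.45, 32.2 and 15.0 CPM, so the library labelled Keap1-deleted BAP 2 had a Keap1 level inside the wildtype range. The basal keratin Krt14 lay between 20039 and 50546 CPM in Keap1-wildtype BAP tumours, and was 824, 1159, 449, 13 and 1063 CPM in the Keap1-deleted BAP libraries. Among the other groups, wildtype untreated 6 (763 CPM) and deleted untreated 3 (1390 CPM) had the lowest Krt14. In bulk RNA, fewer keratinocytes in a tumour and less RNA per keratinocyte cannot be told apart, and this bears on every comparison below.

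Together the 45 genes made up 1.08 to 3.42% of the scaled library in the 6 Keap1-wildtype BAP tumours and 0.00196 to 0.107% in the 5 Keap1-deleted BAP tumours. These ranges are far apart. In untreated tumours the share ran from 0.00851 to 3.12% in Keap1-wildtype libraries and from 0.0125 to 1.49% in Keap1-deleted libraries, and these overlap, with the upper part of the wildtype range above every deleted library. The lowest wildtype untreated library was number 6 and the lowest deleted untreated library was number 3, the same 2 libraries that had the lowest Krt14 of their groups. Wildtype untreated 2 was different: its Krt14 was 9991 CPM and its summed level of the complex was 1827 CPM, against 8520 to 31176 CPM in the other wildtype untreated libraries apart from number 6.

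**Figure D1:**
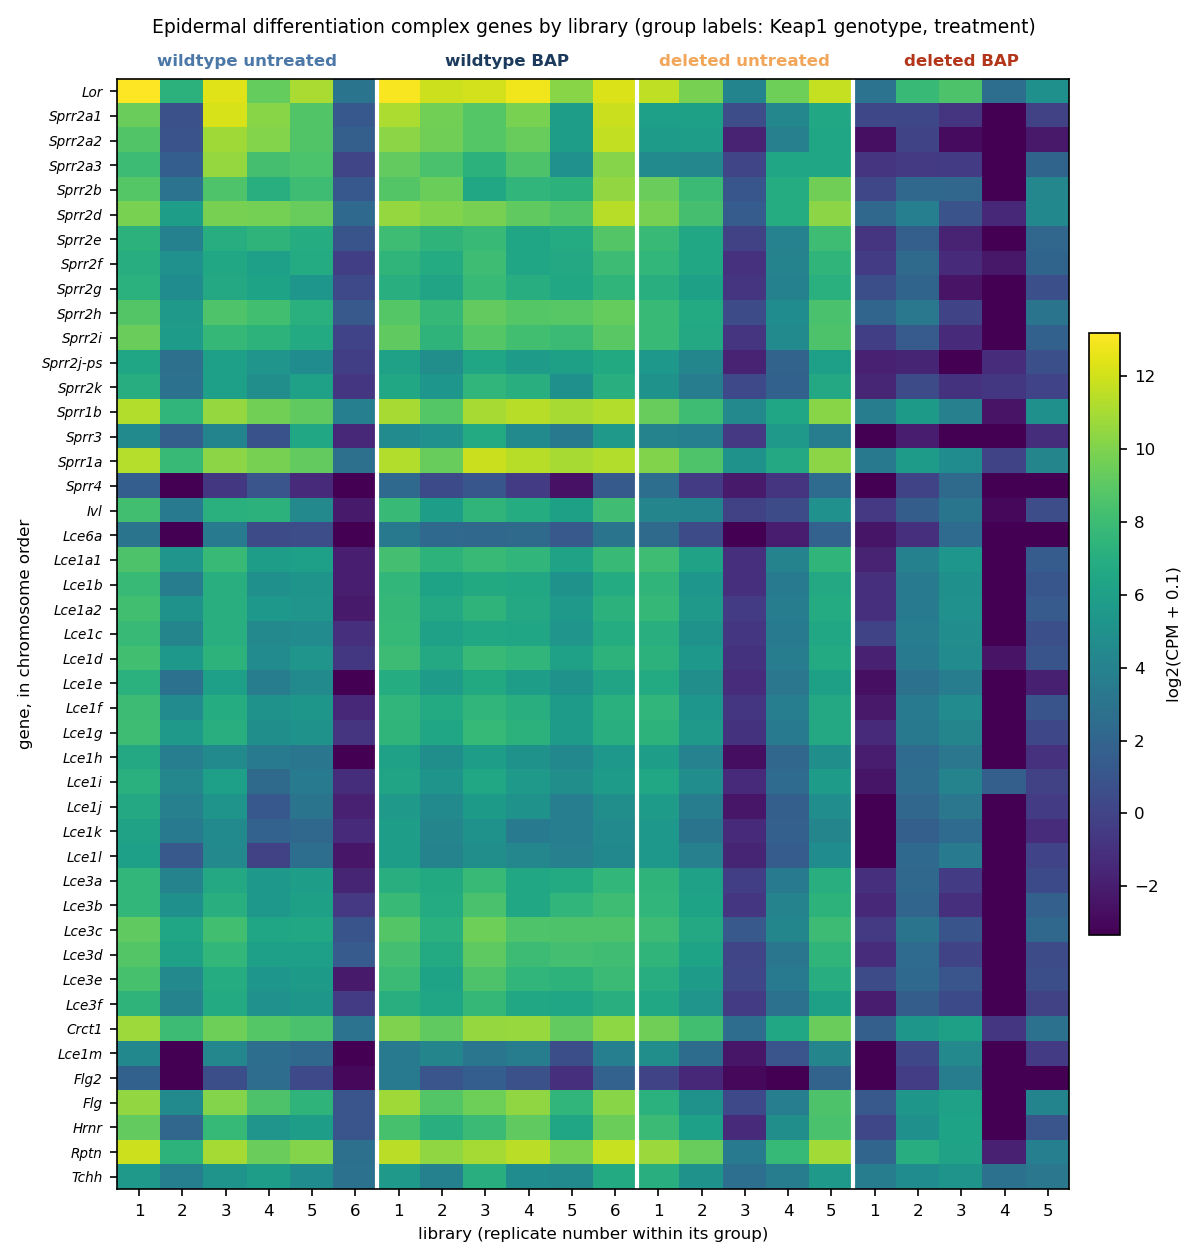
Level of each of the 45 genes (rows, in chromosome order) in each of the 22 libraries (columns, in groups), as log2(CPM + 0.1) on the TMM-scaled library. Low levels are dark: the 5 Keap1-deleted BAP columns are dark over nearly all genes, and wildtype untreated 6 and deleted untreated 3 are dark outside that group.

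Per kilobase of the deposited gene length, Sprr1a (a cross-bridging small proline-rich protein), Lor, Sprr1b, Crct1 (a cysteine-rich protein of the complex) and Sprr2d were the 5 most abundant members in each of the 4 groups. In Keap1-wildtype BAP tumours the median was 3055 CPM per kb for Sprr1a, 2558 for Lor, 2530 for Sprr1b, 1471 for Crct1 and 1417 for Sprr2d. At the other end were Flg2 at 0.118, Tchh (trichohyalin, a hair follicle and tongue protein) at 6.19, Lce6a at 6.26 and Sprr4 at 6.85 CPM per kb, with Sprr3 (esophagin, typical of non-keratinised oral and oesophageal epithelium) at 23.2 and Ivl at 77. In Keap1-deleted BAP tumours the same 5 leaders stood at 22 for Sprr1a, 17.7 for Lor, 17.6 for Sprr1b, 9.04 for Crct1 and 6.60 CPM per kb for Sprr2d. Only Lor, Sprr2d, Sprr1a, Crct1 and Tchh reached 10 counts in every library.

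Among BAP-treated tumours, most genes of the complex were lower where Keap1 was floxed. The log2 fold change between Keap1-deleted and Keap1-wildtype BAP tumours was negative for all 45 genes, with a median of -5.71 against -0.00 over all 19202 genes tested. The test called 36 of the 45 lower and 0 higher, where 20.0% of all genes were called lower and 20.3% higher (edgeR quasi-likelihood test, adjusted p under 0.05). In 40 of the 45 genes every deleted library lay below every wildtype library, as did 13.7% of all genes tested, and the exceptions were Sprr4, Lce6a, Lce1m, Flg2 and Tchh. DESeq2 called 41 of the 45 and limma-voom 37. Without the library labelled Keap1-deleted BAP 2 edgeR called 30.

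The 3 genes Ivl, Lor and Crct1 were all called lower. Lor was 1234 CPM at its lowest, 4550.1 at the median and 8137 at its highest in wildtype BAP tumours (n = 6), and was 7.72, 222, 383, 6.06 and 31.4 CPM in the 5 deleted BAP libraries. The groups did not overlap, libraries 2 and 3 were the highest of the deleted group, and the log2 fold change was -5.25 (SE 1.51, adjusted p = 0.00954). Ivl ran from 57.6 through a median of 148 to 278 CPM in wildtype BAP tumours and was 0.573, 2.78, 8.28, 0.0268 and 1.39 CPM in the deleted libraries. Its groups did not overlap either, and its log2 fold change was -5.87 (SE 1.46, adjusted p = 0.00377). Crct1 ran from 562 to 1571 CPM (median 1165) in wildtype BAP tumours and was 3.02, 42.8, 66.4, 0.510 and 7.16 CPM in the deleted libraries, and it stood at -5.52 on the log2 scale (SE 1.32, adjusted p = 0.00303).

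The Sprr2 genes, small proline-rich proteins of stress and repair, had the largest median fold change of the families. All 12 Sprr2 genes were called lower, with log2 fold changes from -12.13 to -6.35 and a median of -7.20. Sprr2d ran from 405 through a median of 965 to 2682 CPM in wildtype BAP tumours and was 4.50, 13.7, 1.80, 0.268 and 21.0 CPM in the deleted libraries, without overlap, which gave -7.16 on the log2 scale (SE 1.49, adjusted p = 0.00121). Sprr2a2 ran from 60.4 to 3179 CPM against 0.0603, 0.935, 0.0413, 0 and 0.118 CPM, which are 2, 37, 2, 0 and 4 reads. Its log2 fold change of -12.13 (SE 2.12, adjusted p = 0.000454) therefore rests on few reads in the deleted group, most of them in library 2. Sprr2a1 had 36, 43, 22, 0 and 29 reads in the deleted libraries and stood at -10.94 (SE 2.03, adjusted p = 0.000604). Sprr2a1 and Sprr2a2 overlap in the annotation and the Sprr2 genes are close copies of each other, so how reads were split among them is uncertain.

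In the Sprr1, Sprr3 and Sprr4 group, 3 of 4 genes were called lower. Sprr1a ran from 648 through a median of 2462 to 3636 CPM in wildtype BAP tumours and was 10.1, 53.1, 26.0, 0.966 and 17.7 CPM in the deleted libraries, which gave -6.74 on the log2 scale (SE 1.28, adjusted p = 0.000675). Sprr3 ran from 10.2 through a median of 28.3 to 109 CPM in wildtype BAP tumours and had 0, 6, 0, 0 and 12 reads in the deleted libraries. The 3 libraries with no reads were 1, 3 and 4, and the log2 fold change of -8.67 (SE 1.62, adjusted p = 0.000613) rests on the reads of libraries 2 and 5. Sprr4 was 0, 0.935, 5.14, 0 and 0 CPM in the deleted libraries, overlapped the wildtype range and was not called (log2 fold change -0.61, SE 1.48, adjusted p = 0.769).

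Among the late cornified envelope genes, fold changes were larger in the Lce3 than in the Lce1 genes, a difference that was not tested. Of the 7 Lce3 and Lce6 genes 6 were called lower, with a median log2 fold change of -6.91, and of the 14 Lce1 genes 10 were called lower, with a median of -3.83 and a range from -4.55 to -1.23. Lce3d ran from 110 through a median of 288 to 529 CPM in wildtype BAP tumours and was 0.332, 5.43, 0.949, 0 and 1.36 CPM in the deleted libraries, which gave -7.51 on the log2 scale (SE 1.47, adjusted p = 0.00082). Lce1g ran from 54.6 through a median of 146 to 208 CPM and was 0.302, 9.96, 17.7, 0 and 1.09 CPM, which gave -4.55 (SE 1.44, adjusted p = 0.0165). Both genes were free of overlap between the groups, and Lce1g was highest in deleted library 3 where Lce3d was under 1 CPM.

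Among the 5 S100 fused-type genes, Rptn and Flg were called lower and the other 3 were not. Rptn (repetin) ran from 910 through a median of 2419 to 3522 CPM in wildtype BAP tumours and was 4.07, 124, 73.0, 0.188 and 13.6 CPM in the deleted libraries, and it stood at -5.71 on the log2 scale (SE 1.5, adjusted p = 0.00557). Flg ran from 184 through a median of 963 to 1783 CPM and was 2.29, 42.7, 69.0, 0 and 17.5 CPM, and it stood at -5.17 (SE 1.65, adjusted p = 0.017). Hrnr (hornerin) was 1.03, 31.0, 74.2, 0 and 1.95 CPM in the deleted libraries, all below the wildtype BAP minimum of 83.7, yet was not called at an adjusted p of 0.0566 (log2 fold change -3.99, SE 1.63). Tchh ran from 15.1 to 127 CPM in wildtype BAP tumours and from 7.30 to 36.4 CPM in deleted ones, overlapped, and was not called (log2 fold change -1.66, SE 0.74, adjusted p = 0.0791). Flg2 was 0, 0.707, 12.7, 0 and 0 CPM in the deleted libraries, and library 3, with 616 reads, was higher than any of the 6 wildtype BAP tumours, so its log2 fold change was -0.37 (SE 1.59, adjusted p = 0.873).

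Deleted BAP library 3 set the value of several weakly changed genes. Without it 41 of the 45 genes were called lower: Hrnr stood at -5.33 (adjusted p = 0.0333), Lce1m at -4.59 (adjusted p = 0.0472) and Lce6a at -5.55 (adjusted p = 0.0239), where with it they stood at -3.99, -1.23 and -2.30. Flg2 moved to -4.24 (adjusted p = 0.0779) and was still not called. Over the 22 single omissions, from 28 to 41 genes were called.

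**Figure D2:**
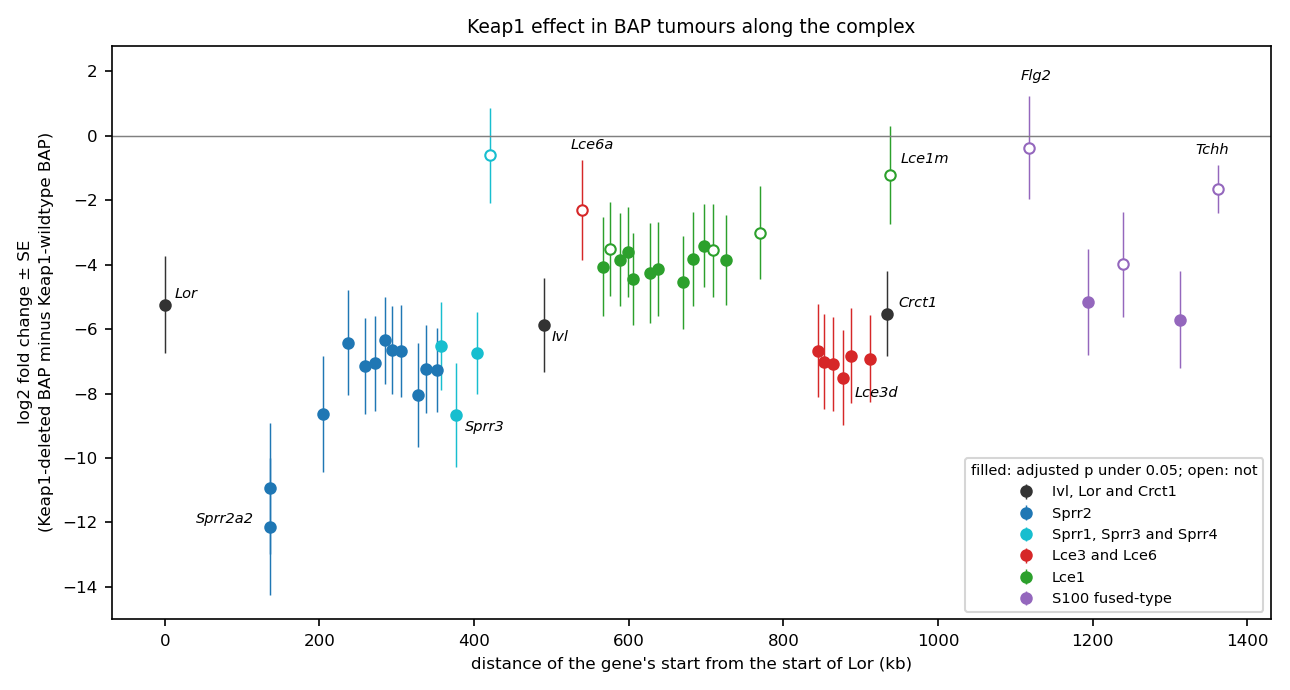
Log2 fold change between Keap1-deleted and Keap1-wildtype BAP tumours (edgeR, bars are 1 SE) for each of the 45 genes against its distance in kb from the start of Lor, coloured by family, with filled points for genes called at an adjusted p under 0.05. The Sprr2 genes reach -12.13, the Lce1 genes lie between -4.55 and -1.23, and the highest point is Flg2 at -0.37.

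Within each tumour the Lce1 and Lce3 genes kept a like ratio outside the Keap1-deleted BAP group. The summed CPM of the 14 Lce1 genes divided by that of the 6 Lce3 genes lay between 0.408 and 1.70 in the 17 libraries of the other groups. In the Keap1-deleted BAP libraries it was 0.950, 3.78, 40.5 and 1.37 for libraries 1, 2, 3 and 5, and library 4 had no Lce3 reads. Library 3 held 282 CPM of Lce1 with 12.3 CPM of the Lce3 and Lce6 genes together, and library 2 held 113 CPM with 30.2 CPM. This contrast was picked after the values were seen, and it rests on these 2 libraries.

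**Figure D3:**
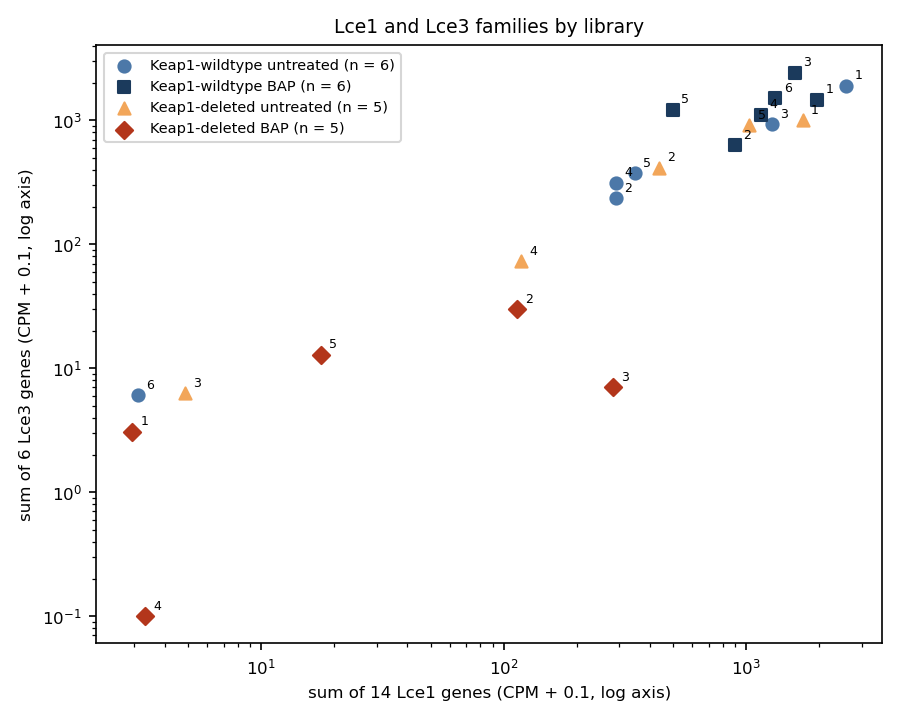
Summed CPM of the 6 Lce3 genes (vertical) against that of the 14 Lce1 genes (horizontal) in each library, both as CPM + 0.1 on log axes, coloured by group. The 17 libraries of the other groups follow 1 band, with Lce1 to Lce3 ratios from 0.408 to 1.70. Keap1-deleted BAP 3 lies below it with a ratio of 40.5.

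The fall of the complex in Keap1-deleted BAP tumours went with a fall of basal keratinocyte genes. Of 13 basal keratinocyte genes 12 were called lower, among them Trp63 (log2 fold change -4.85, SE 0.77, adjusted p = 0.000332) and the laminin chain Lamb3 (log2 fold change -4.70, SE 0.82, adjusted p = 0.00045), with a median of -4.09 and Dst the gene not called. Their summed level lay between 27206 and 63459 CPM in wildtype BAP tumours and between 334 and 1883 CPM in deleted ones. Relative to 1000 CPM of Krt5 and Krt14 together, the complex summed to between 252 and 708 CPM in wildtype BAP tumours, and to 73.1, 569, 1568, 1323 and 169 CPM in the deleted libraries. On that scale the deleted libraries lay on both sides of the wildtype range, and the difference in mean log2 summed level went from -6.76 to -0.29. With a basal keratinocyte score as a covariate edgeR called 0 of the 45 genes and 0 of all genes, with 1007 genes at an unadjusted p under 0.05, and 38 of the 45 fold changes turned positive with a median of 2.05. The score, a mean log2 level, lay between 8.44 and 9.35 in wildtype BAP tumours and between 2.42 and 5.73 in deleted ones, so within BAP tumours it cannot be told apart from the genotype.

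Families differed in how far they followed the basal keratins. Per 1000 CPM of Krt5 and Krt14, the Lce3 and Lce6 genes summed to between 24.9 and 62.4 CPM in wildtype BAP tumours and to between 0 and 21.9 CPM in deleted ones, without overlap. Untreated tumours spanned both ranges on this scale, from 6.16 to 42.9 CPM in wildtype and from 3.53 to 44.8 CPM in deleted libraries. The 3 Sprr2a genes, at 3.56 to 131 CPM in wildtype and 0 to 3.55 CPM in deleted BAP tumours, did not overlap either, though they nearly touched. The other Sprr2 genes, at 39.5 to 105 CPM in wildtype and 12.1 to 83.3 CPM in deleted tumours, overlapped, as did Sprr1a, Sprr1b, Sprr3 and Sprr4 together at 46.1 to 150 CPM against 21.7 to 75.2 CPM and the Lce1 genes at 11.7 to 41.6 CPM against 2.77 to 413 CPM. Ivl, Lor and Crct1 summed to 44.2 to 251 CPM against 11.1 to 669 CPM, and the S100 fused-type genes to 28.1 to 135 CPM against 19.8 to 505 CPM. The 83.3 CPM of the other Sprr2 genes and the 505 CPM of the S100 fused-type genes both came from deleted BAP 4. There these genes summed to only 1.23 and 7.48 CPM before the division, and Krt14 was 13 CPM. Deleted BAP 5 had 47.3 CPM of the other Sprr2 genes on this scale, which also overlapped the wildtype range. These ratios were not tested.

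**Figure D4:**
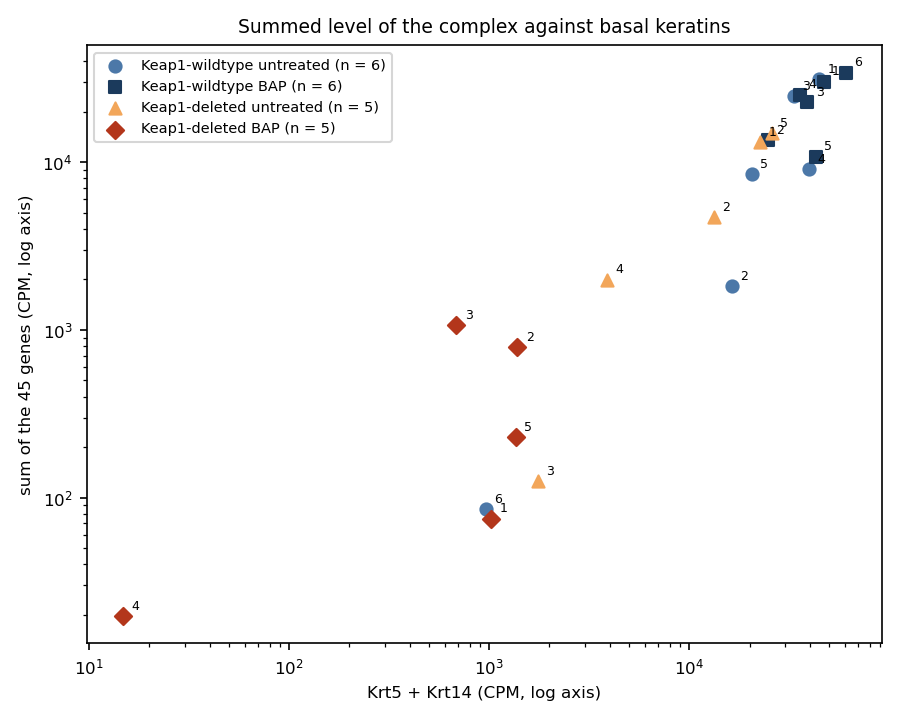
Summed CPM of the 45 genes (vertical) against the CPM of Krt5 and Krt14 together (horizontal) in each library, on log axes and coloured by group. The Keap1-deleted BAP libraries are low on both axes, and wildtype untreated 2 and 6, deleted untreated 3 and deleted BAP 1 and 5 lie lowest for their basal keratins.

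Markers of fibroblasts, macrophages and skeletal muscle moved the other way in the same contrast. All 8 fibroblast markers were called higher, and their summed level lay between 598 and 2126 CPM in wildtype BAP tumours and between 12087 and 37343 CPM in deleted ones. All 8 macrophage markers were called higher, at 87.0 to 208 CPM against 1671 to 3604 CPM, and 7 of 8 skeletal muscle markers were called higher, at 3.0 to 71.6 CPM against 12.1 to 977 CPM. Of 6 endothelial markers 1 was called higher, of 7 simple epithelium markers 2 were called lower, of 3 salivary gland markers tested 1 was called higher, and no marker was at 0 in all libraries. The part of these cell types in the fall of the complex was not tested.

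Genes that work with the complex outside it fell alongside. All 16 envelope partners, the enzymes and scaffold proteins that assemble the envelope, were called lower with a median log2 fold change of -5.39. They included transglutaminase 1 (Tgm1, -5.36, SE 0.96, adjusted p = 0.000489), which cross-links the envelope, and envoplakin (Evpl, -5.66, SE 1.08, adjusted p = 0.000686). Krtdap, a keratinocyte differentiation protein, stood at -5.37 (SE 1.07, adjusted p = 0.000908) and the epidermal lipoxygenase Aloxe3 at -5.42 (SE 1.11, adjusted p = 0.00107). Of 10 suprabasal keratins 8 were called lower with a median of -5.11, including Krt10 of keratinised epithelium (-5.31, SE 1.41, adjusted p = 0.00588) and the keratins of moist stratified epithelium Krt13 (-8.49, SE 1.83, adjusted p = 0.00146) and Krt4 (-9.64, SE 2.50, adjusted p = 0.00499). Limma-voom did not call Krt4 (adjusted p = 0.165).

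Other genes of the wider chromosome 3 region, S100 genes, which lie outside the 1.37 Mb of the members, and a few neighbours, were called in both directions. Of 18 tested, 11 were called lower and 6 higher. S100a14 (-5.05, SE 1.0, adjusted p = 0.000866) and S100a16 (-3.53, SE 0.64, adjusted p = 0.000529), calcium-binding proteins abundant in epithelia, fell. S100a6 (2.25, SE 0.32, adjusted p = 0.000267) and S100a10 (1.95, SE 0.33, adjusted p = 0.000397), which are expressed in many cell types, rose. Of 20 transcription factors of keratinocyte differentiation 17 were called lower, with a median of -3.09. Elf3, an ETS factor of differentiated epithelium, fell by 7.49 on the log2 scale (SE 1.19, adjusted p = 0.000332), the repressor Prdm1 by 2.42 (SE 0.38, adjusted p = 0.000332), the AP-1 subunit Junb by 1.94 (SE 0.34, adjusted p = 0.000466) and Tfap2a by 2.24 (SE 0.42, adjusted p = 0.000609).

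In untreated tumours the test found no member changed between Keap1-deleted and Keap1-wildtype tumours. EdgeR called 0 of the 45 genes, where 0.292% of all genes were called, and 4 of the 45 had an unadjusted p under 0.05, as did 3382 of all 19202 genes. DESeq2 called 2 of the 45, Sprr2a1 and Sprr2a2, and over all genes it called 405 higher and 539 lower. Limma-voom called 0 of the 45, and over all genes 1281 higher and 607 lower. Lor was 9206, 155, 5350, 612, 2130 and 8.03 CPM in wildtype libraries 1 to 6 (mean 2910 ± 3674, SD, n = 6) and 3016, 893, 17.6, 744 and 3392 CPM in deleted libraries 1 to 5 (mean 1613 ± 1496, SD, n = 5), so the spread within each group exceeded the difference (log2 fold change -0.85, SE 1.24, adjusted p = 0.74). Ivl ran from 0.130 to 290 CPM against 18.4, 17.1, 0.801, 1.32 and 33.0 CPM, which gave -2.87 on the log2 scale (SE 1.25, adjusted p = 0.243). Sprr1a stood at -0.71 (SE 0.97, adjusted p = 0.719) and Sprr2d at -0.14 (SE 1.1, adjusted p = 0.958). NRF2 targets were called in this contrast, 4 of 12 higher where 0.214% of all genes were, among them the glutathione transferase Gstm1 (log2 fold change 3.50, SE 0.57, adjusted p = 0.00756), while Nqo1, a quinone reductase, stood at 2.67 (SE 0.56, adjusted p = 0.0457). The Nqo1 call was lost in 16 of the 22 single omissions, with adjusted p-values up to 0.122. Under BAP 5 of the 12 were called higher and 2 lower, where 20.3% and 20.0% of all genes were, and Nqo1 was 403, 177, 19.4, 54.3 and 135 CPM in the deleted libraries against 30.6 to 85.8 CPM in wildtype ones.

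The Sprr2a genes had a lower median share of the Sprr2 total in Keap1-deleted tumours, with and without BAP. Sprr2a1, Sprr2a2 and Sprr2a3 together made up 30.5, 2.44, 77.2, 59.4, 43.2 and 29.3% of Sprr2 CPM in wildtype untreated libraries 1 to 6, and 5.03, 12, 21.5, 25.8 and 6.92% in deleted untreated libraries 1 to 5. The ranges overlap through wildtype untreated 2, the lowest of its group. In wildtype BAP libraries the share was 53.1, 42.7, 26.3, 49.8, 8.28 and 55.5%, and in deleted BAP libraries it was 10.7, 5.63, 12, 0 and 6.97%, of Sprr2 totals of 497, 1847, 457, 46 and 2352 reads. The medians were 36.9, 46.3, 12 and 6.97% for the 4 groups in that order of wildtype untreated, wildtype BAP, deleted untreated and deleted BAP. This share was chosen after its values were seen and has no test. For the single genes in untreated tumours, Sprr2a1 stood at -4.54 (SE 1.53, adjusted p = 0.148) and Sprr2a2 at -3.92 (SE 1.47, adjusted p = 0.181), and without wildtype untreated 6 their edgeR adjusted p-values were 0.0266 and 0.0453. That omission raised the calls over all genes as well, from 41 to 1641 higher and from 15 to 1090 lower.

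**Figure D5:**
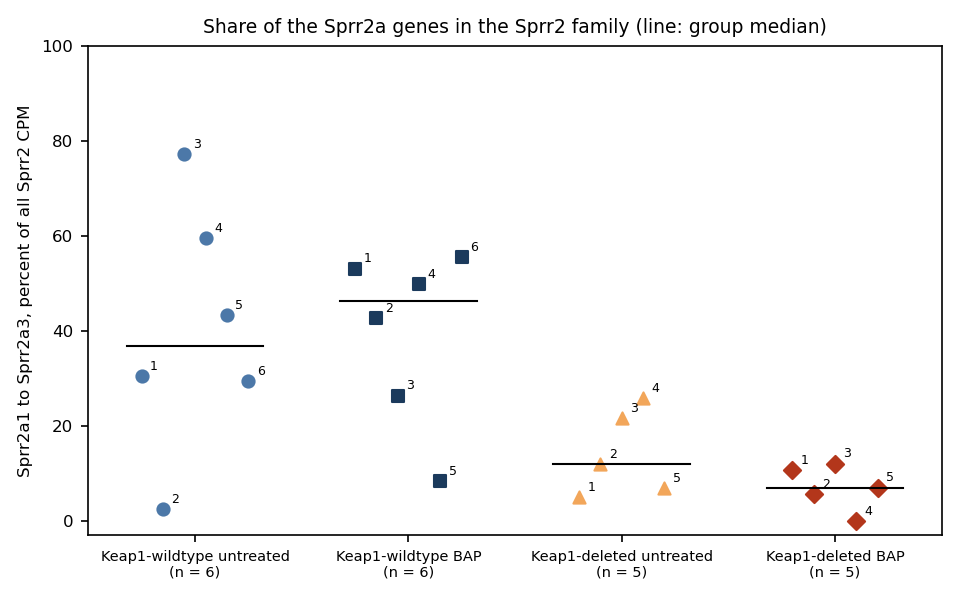
Percent of the summed Sprr2 CPM that came from Sprr2a1, Sprr2a2 and Sprr2a3 in each library, by group, with a line at the group median. The medians are 36.9 and 46.3% in the Keap1-wildtype groups and 12 and 6.97% in the Keap1-deleted groups.

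BAP treatment alone, in Keap1-wildtype tumours, gave no call. EdgeR called 0 of the 45 genes, none of which reached an unadjusted p under 0.05, and 0% of all genes, of which 2622 reached that p. DESeq2 and limma-voom called 0 of the 45 as well. All 45 fold changes were positive, from 0.10 to 1.39, with a median of 0.83 against -0.09 over all genes. Sprr1a had a mean of 926 ± 921 CPM in untreated and 2314 ± 975 CPM in BAP tumours (SD, n = 6 each), or 1.32 on the log2 scale (SE 0.93, adjusted p = 0.569), and Lor stood at 0.76 (SE 1.17, adjusted p = 0.821). Lor and Sprr1a both had their lowest untreated value in library 6, at 8.03 and 6.84 CPM.

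In Keap1-deleted tumours, those treated with BAP had lower levels of a part of the complex than untreated ones. EdgeR called 20 of the 45 genes lower and 0 higher, where 5.16% of all genes were called lower and 0.943% higher, and 32 of the 45 had an unadjusted p under 0.05, as did 3901 of all 19202 genes. The calls were 11 of the 12 Sprr2 genes, 3 of the 4 Sprr1, Sprr3 and Sprr4 genes and 6 of the 7 Lce3 and Lce6 genes, with none among the Lce1, the S100 fused-type or the Ivl, Lor and Crct1 genes. Sprr3 was 16.6, 13.9, 0.569, 46.2 and 12 CPM in untreated libraries against 0, 0.152, 0, 0 and 0.354 CPM in BAP libraries, without overlap, which gave -7.46 on the log2 scale (SE 1.56, adjusted p = 0.0161). Lce3d was 179, 75.2, 0.982, 8.78 and 175 CPM in untreated libraries and stood at -5.76 (SE 1.37, adjusted p = 0.0234), with untreated library 3 inside the range of the BAP libraries. Sprr2d stood at -5.94 (SE 1.42, adjusted p = 0.0235), Sprr1a at -4.71 (SE 1.17, adjusted p = 0.0251) and Lor, not called, at -3.63 (SE 1.41, adjusted p = 0.138). The number of calls rested on single libraries: it was 2 without deleted untreated 1, 1 without deleted untreated 5, 3 without deleted BAP 1, 1 without deleted BAP 4 and 8 without deleted BAP 5, with medians over the 45 genes from -3.72 to -3.49 in these 5 fits against -3.95 with all libraries. Calls lower over all genes fell as well, from 991 to 161 without deleted untreated 1, 164 without deleted untreated 5 and 321 without deleted BAP 1. In the same contrast 8 of 13 basal keratinocyte genes were called lower, with a median of -2.73 and Krt14 at -4.05, as were 10 of 16 envelope partners, and the part of the basal keratinocyte genes in the fall of the members was not tested.

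The difference between the Keap1 effects with and without BAP was tested as an interaction. EdgeR called 19 of the 45 genes, all more negative under BAP, where 4.47% of all genes were called lower and 2.47% higher, and 29 of the 45 reached an unadjusted p under 0.05, as did 5082 of all 19202 genes. These were 10 of the 12 Sprr2 genes, 3 of the Sprr1, Sprr3 and Sprr4 group and 6 of the Lce3 and Lce6 group. The median over the 45 genes was -4.84 against 0.10 over all genes. Sprr3 stood at -8.28 (SE 1.82, adjusted p = 0.0292), Sprr2d at -7.02 (SE 1.72, adjusted p = 0.03), Lce3d at -6.85 (SE 1.67, adjusted p = 0.0299) and Sprr1a at -6.03 (SE 1.47, adjusted p = 0.0299). Lor, at -4.39 (SE 1.80, adjusted p = 0.125), was not called. The count fell to 0 without deleted untreated 1, 2 or 5 or without deleted BAP 4, to 8 without deleted BAP 1 and to 9 without deleted BAP 5. In the 4 fits that gave 0, the calls over all genes fell to 1 or 2, between 4235 and 4618 genes had an unadjusted p under 0.05, and the median over the 45 genes lay between -4.92 and -4.38. In the same interaction 7 of 13 basal keratinocyte genes, 11 of 16 envelope partners and 9 of 20 differentiation transcription factors were called lower, and 7 of 8 macrophage markers were called higher. The interaction, both BAP effects and both Keap1 effects share groups, so they are not independent of each other.

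Of the 4 tumours with the most Sprr3, wildtype untreated 5 and deleted untreated 4 ranked lower for Lor. The highest Sprr3 levels were 109 CPM in wildtype BAP 3, 94.7 CPM in wildtype untreated 5, 48.2 CPM in wildtype BAP 6 and 46.2 CPM in deleted untreated 4, which ranked 6, 10, 5 and 13 of 22 for Lor. For Krt13, the keratin of moist oral epithelium, the same libraries ranked 1, 3, 6 and 2, with 1936 CPM in wildtype BAP 3, 1620 CPM in wildtype untreated 5 and 1642 CPM in deleted untreated 4. Krt4, its partner keratin, had its highest level of 781 CPM in wildtype untreated 5. These ranks were looked up after the values were seen and are a description of 4 tumours.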

How the data were processed

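Bulk RNA-seq of 22 tumours was analysed from the expected counts per Ensembl gene deposited by the authors, made with RSEM per the file names. The deposited expected counts were whole numbers (0 were not whole at a tolerance of 1e-09), so rounding changed nothing, and the deposited gene length, which did not differ between files, was used only for levels per kb. Which aligner, build and annotation the authors used is not given in the sources used here. Symbols, positions and biotypes came from GENCODE M21 (GRCm38) by gene ID: 52073 of 56748 IDs had a symbol, holding 99.39% of counts. RSEM splits reads between near-identical copies by estimate, which touches the Sprr2, Sprr1 and Lce genes. Groups follow the labelled genotype and treatment, with replicates numbered in accession order.

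The tests used edgeR 4.0.16 (quasi-likelihood, robust, TMM scaling, 1 term per group over all 22 libraries) after a filter at a minimum count of 10 left 19202 genes, with Benjamini-Hochberg adjustment over all of them and calls at an adjusted p under 0.05. All 45 genes passed the filter. The SE was derived from the F value. Alternatives used DESeq2 1.42.0, limma 3.58.1 (voom with quality weights), other scalings and filters, fewer samples and covariates, in R 4.3.3. Self-tests ran on simulated counts. The members and gene lists were chosen with earlier results of these data known. Any of the 45 genes could be named, and those given with a fold change were picked after their values were seen; of each list, up to 4 called genes with the smallest p were named. Counting intervals and floors cover counting error only.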

Additional observations from a re-analysis of the deposited data

Results flagged for a closer look

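Within a group, the highest or lowest library stood far from the others in 23 of the 180 sets of a gene and a group examined. For independent sets chance would mark about 1 in 20. These sets share libraries, with 6 of the 23 from wildtype untreated 1, so an excess over chance cannot be judged. Wildtype untreated 1 was the high library for Sprr2i at 681 CPM, Lce1h at 98.7, Lce1k at 71.4, Lce1l at 62.5, Lce3e at 332 and Hrnr at 603. Wildtype untreated 3 was the high library for Sprr2a1 at 4599 CPM and Sprr2a3 at 1532, and wildtype untreated 5 for Sprr3 at 94.7. In wildtype BAP tumours, library 1 was high for Lce1l at 56.7 CPM and Flg2 at 10.4, and library 2 was low for Sprr1b at 457.

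Deleted untreated 5 was high for Flg2 at 3.78 CPM. In Keap1-deleted BAP tumours, library 2 was high for Sprr2a2 at 0.935 CPM, Lce3a at 4.70 and Lce3d at 5.43. Library 3 was high for Sprr4 at 5.14 CPM, Lce6a at 5.33, Lce1m at 21.4 and Flg2 at 12.7, and library 5 for Sprr2a3 at 3.86, Sprr2b at 19.9 and Sprr2j-ps at 1.56.

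The difference between the Keap1 effects in BAP-treated and untreated tumours was called for 19 of the 45 genes by the interaction test of edgeR. All 19 were more negative under BAP, where 4.47% of all genes were called lower. The count was 0 without deleted untreated 1, 2 or 5 or without deleted BAP 4. It was also 0 without the low-count filter and with the basal keratinocyte covariate. On the log2 scale the difference was -8.21 for Sprr2a2, -7.60 for Sprr2i, -7.38 for Sprr2e, -7.19 for Sprr2b, -7.02 for Sprr2d, -6.81 for Sprr2g and -6.77 for Sprr2f. It was -6.74 for Sprr2j-ps, -6.57 for Sprr2k and -6.05 for Sprr2h. Sprr3 stood at -8.28, Sprr1a at -6.03 and Sprr1b at -5.47. Among the Lce3 genes, Lce3b stood at -7.20, Lce3d at -6.85, Lce3a at -6.84, Lce3c at -6.50, Lce3f at -6.31 and Lce3e at -6.26.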

How the results depend on the processing

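A set of 58 fold changes, picked from those named in the report, was followed through the alternatives. All 58 kept their direction and call under DESeq2 size factors in edgeR and under a filter at 1 CPM in at least 5 libraries. DESeq2 left 52 as they were and called 6 more. Limma-voom lost 7 calls and gained 4, and leaving out the low-count filter lost 9. With only the groups compared, 47 stayed as they were, 5 calls were lost and 1 was gained, and the interaction was not fitted. The basal keratinocyte covariate reversed the direction of 31, and 20 others lost their call. No paired analysis was possible because the titles are tumour names and the replicate numbers follow only accession order. Between 28 and 41 of the 45 genes were called lower in Keap1-deleted BAP tumours under every alternative apart from the basal keratinocyte covariate, which gave 0.

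The weaker contrasts depended on the fit. The Keap1 effect in untreated tumours gave 2 called genes under DESeq2 and 2 without wildtype untreated 6 and deleted BAP 2 together, and from 0 to 2 with single libraries left out. Over all genes, 539 were called lower under DESeq2 and 986 without these 2 libraries, against 15 in the main fit. The BAP effect in Keap1-deleted tumours gave 6 under voom, 3 without the low-count filter, 4 with only the groups compared, 33 with a covariate for titles ending in R (whose meaning the labels do not give), 0 with the basal covariate and from 1 to 23 with single libraries left out. Over all genes, the calls lower were 1871 under voom, 364 without the filter and 256 with only the groups compared. They were 1396 with the R covariate and 1 with the basal covariate, against 991 in the main fit. The interaction gave 7 under voom, 0 without the filter, 37 with the R covariate, 0 with the basal covariate and from 0 to 22 with single libraries left out. Its calls lower over all genes were 1154 under voom, 84 without the filter, 1719 with the R covariate and 0 with the basal covariate, against 858. The summed level relative to Krt5 and Krt14 differed by -0.29 on the log2 scale between genotypes under BAP, and by 0.35 between BAP-treated and untreated Keap1-deleted tumours, where the CPM values gave -6.76 and -3.93; the division by 2 keratins that differ between the groups makes this change.

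With the basal covariate the following log2 fold changes turned positive; the cause was not tested. In untreated tumours these were Lor 0.68, Sprr1a 0.59, Sprr3 0.52 and Sprr2d 0.81. In the Keap1 effect under BAP they were Lor 1.46, Ivl 3.25, Crct1 1.85, Rptn 2.64, Flg 4.28, Flg2 8.90, Hrnr 3.95, Tchh 1.85, Sprr1a 0.68, Sprr4 7.41, Lce1g 4.15, Lce1m 6.79, Lce3d 0.52, Lce6a 6.56, Evpl 1.17, Krtdap 1.48, Aloxe3 1.30, Krt78 1.59, Krt10 2.16, S100a14 1.1 and Junb 0.01. In the BAP effect in Keap1-deleted tumours they were Lce3d 0.10, Sprr1a 0.59 and Lor 1.06, and in the interaction Lce3d 0.15, Sprr1a 0.09 and Lor 0.79. With the R covariate, the untreated values of Lor, Sprr3 and Sprr2d were 1.32, 0.37 and 0.05. Scaled by library totals alone, Sprr2d in untreated tumours was 0.01 and Flg2 under BAP 0.13; that scaling moved the median of all genes in the Keap1 effect under BAP by 0.44, and 6051 genes were called higher and 2193 lower, against 3900 and 3846 with TMM. With single libraries left out, Sprr3 in untreated tumours ran from -1.12 to 0.97, Sprr2d from -0.74 to 0.19, and Flg2 under BAP from -4.24 to 0.37.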
